A study of Mus musculus with 4 samples.

Results

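Serpins are a family of protease inhibitors, and 58 of the 25289 gene columns of the deposited tables carry a symbol that starts with Serpin; all 58 were taken as the family here. The mouse arranges most of them in tandem clusters of close relatives, and the files list 22 members of clade A, largely secreted proteins, and 25 members of clade B, largely intracellular proteins. An inhibitory serpin offers a protease a bait loop, is cut there, and then changes shape so that the protease stays trapped on it. Some members no longer inhibit proteases, and Serpinh1 is a chaperone of collagen. In the intestinal epithelium clade B serpins are known as guards against proteases that escape into the cytosol, and those of the granzyme-inhibiting branch as shields against cytotoxic lymphocytes.

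The libraries were made by inDrop, in which droplets give the messenger RNA of each cell its own barcode, from adult C57BL/6J small intestine, using cells sorted for EpCAM and against CD45, TER119 and DAPI. Control mice had the genotype Lats1fl/fl Lats2fl/fl without a Cre, and the Lats-deleted mice were Lrig1-CreERT2 Lats1fl/fl Lats2fl/fl, in which tamoxifen activates Cre in cells that express Lrig1. Both groups were given 2 mg of tamoxifen and were taken at day 7, with 2 libraries in each group. Whether each library is a separate animal is not stated in the labels, so p-values measure the spread between libraries, which may be technical.

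The controls gave 774 and 515 kept cells and the Lats-deleted libraries 726 and 1289, with medians of 1708 to 1995 counts against 3716 to 3848 counts per cell. Lats1 was at 20.6 and 32.6 CPM (counts per 1000000 counts of the library) in controls against 7.58 and 9.78 CPM after deletion, whereas Lats2 was at 8.11 and 9.77 CPM against 29.8 and 21.3 CPM; the counts are per gene and do not separate the deleted exons. Xist, which female cells express, reached 640 and 505 CPM after deletion and 9.35 and 6.51 CPM in controls. The Y-linked genes Ddx3y, Uty, Kdm5d and Eif2s3y summed to 93.5 and 108 CPM in controls. After deletion they were lower but present, at 34.8 and 25.4 CPM. The sexes of the mice therefore cannot be told apart from the genotype. Krt8, an epithelial keratin, was at 2148 to 8582 CPM in every library. Library pairs shared 4 to 12 cell barcodes. Lats-deleted library 2 stood apart: 603 of its cells (46.8%) lay in clusters 2, 7 and 15, which held 6 cells of Lats-deleted library 1 and none of the controls.

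Serpin transcripts made up 0.108% and 0.0912% of all counts in controls and 0.452% and 0.223% after deletion. Most of the control counts came from a pair of genes: Serpinb1a and Serpinb6a held 90.1% and 88.4% of the family's counts. In the Lats-deleted libraries the same pair held 21.3% and 29.2%, while Serpinb9b made up 58.8% and 48.2%, against 1.21% and 0.268% in controls. With Serpinb9b left out, the family was at 1067 and 909 CPM in controls and 1865 and 1157 CPM after deletion. Clade B held 93.2% to 95.8% of the family's counts in each of the 4 libraries.

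The members Serpina1a, Serpina1d and Serpinb9f had no count in any kept cell, and 55 had at least 1. Counts summed per library were tested for 14 members that passed the filter on low counts, and 8 of these were higher in Lats-deleted cells while 0 were lower (edgeR quasi-likelihood test, Benjamini-Hochberg adjusted p under 0.05 over all genes). Across all 12561 genes tested, 30.8% were called, 15.3% higher and 15.5% lower. At an unadjusted p under 0.05 in the edgeR test, 9 members were higher and 0 lower, beside 2729 and 2621 of the 12561 genes. DESeq2 called 9 members higher and 0 lower, and its share of all genes by direction was not worked out. Both Lats-deleted libraries lay above both controls for 9 of the 14 and below both for 1, beside 35.6% and 33.2% of all genes tested. The 14 tested members had a median log2 fold change of 3.40, beside 0.05 for all genes tested. The other 41 members with a count did not pass the filter; the highest of them in any library reached 6.06 CPM and none had more than 19 counts in a library. A member that is low in controls passes the filter only through the Lats-deleted libraries. The counts and the median above therefore describe only the members that were measurable, and can lean towards higher.

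The sums combine the make-up of a library with the level per cell, so that more cells of a type and more RNA per cell cannot be told apart in them; the values by cluster are given further down. CPM of single genes in the sums of all kept cells and of enterocyte-like cells use TMM-scaled library sizes. Plain totals were used for clusters, low-count barcodes, the whole family, marker lists and sums without stromal-like cells. The same holds for Lats1, Lats2, Krt8, Xist and the Y-linked genes.

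**Figure D1:**
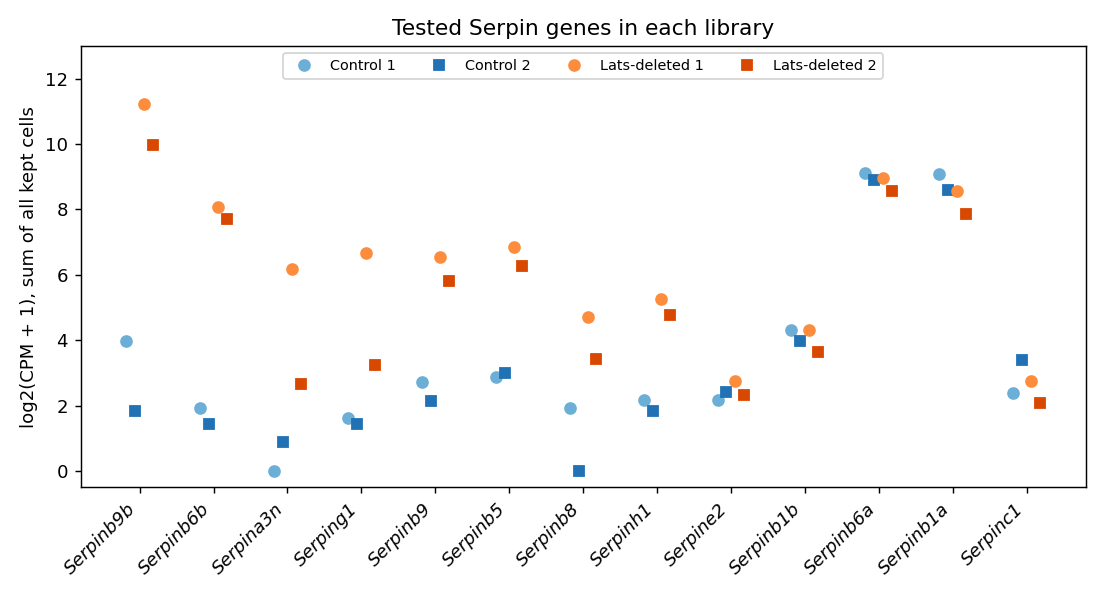
Levels of 13 tested Serpin genes, as log2(CPM + 1) of the counts summed over all kept cells, in each control library (blue) and Lats-deleted library (orange); circles are replicate 1 and squares replicate 2. Serpinb9b stood at 2391 and 1002 CPM after deletion against 14.7 and 2.60 CPM in controls. The points of Serpinb6a and Serpinb1a lie far closer together, and for Serpinb1a both Lats-deleted points lie below both control points.

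Among the tested clade B members the differences were largest for Serpinb9b, Serpinb6b and Serpinb9. Serpinb9b, an intracellular serpin closely related to the granzyme B inhibitor Serpinb9, was at 14.7 and 2.60 CPM in controls and reached 2391 and 1002 CPM after deletion. Both Lats-deleted libraries were far above both controls. The log2 fold change came to 7.56 (SE 0.786, adjusted p = 0.000837 by the edgeR test). It was 9.37 without control library 1, 6.87 without control library 2 and 6.77 without Lats-deleted library 1. Control library 1 had 21 Serpinb9b counts, of which 10 (47.6%) came from a single cell.

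Serpinb6b, an intracellular serpin reported to inhibit granzyme A, was at 2.80 and 1.73 CPM in controls and at 266 and 210 CPM after deletion. The groups were far apart relative to the spread within each, with log2 fold change 6.66 (SE 0.353, adjusted p = 0.000183). Serpinb9, which protects cells from granzyme B, was at 5.59 and 3.46 CPM in controls and at 91.7 and 54.7 CPM after deletion. Its log2 fold change came to 3.97 (SE 0.429, adjusted p = 0.000966), and the lower of the Lats-deleted libraries was still above the higher of the controls.

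These 3 genes are neighbours on chromosome 13 (GRCm38, GENCODE M21). Serpinb6b lies at 32965209 to 32979067, Serpinb9 at 33003250 to 33017957 and Serpinb9b at 33027416 to 33041884, all on the plus strand. They take places 2, 3 and 4 among the 13 family members of that chromosome in the order of their starts. On one side of them lies Serpinb1a (32842092 to 32851185) and on the other Serpinb1b (33078575 to 33094380), neither of which passed the test. Serpinb1b, a close copy of Serpinb1a, was at 18.9 and 14.7 CPM in controls and 19.0 and 11.5 CPM after deletion, so its groups overlapped (log2 fold change -0.16, SE 0.371, adjusted p = 0.780). Beyond Serpinb1b, the 7 members from Serpinb9c to Serpinb6c had 0 to 17 counts in a library and were not tested. Serpinb6a closes the row at 33917918 to 34002794.

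**Figure D2:**
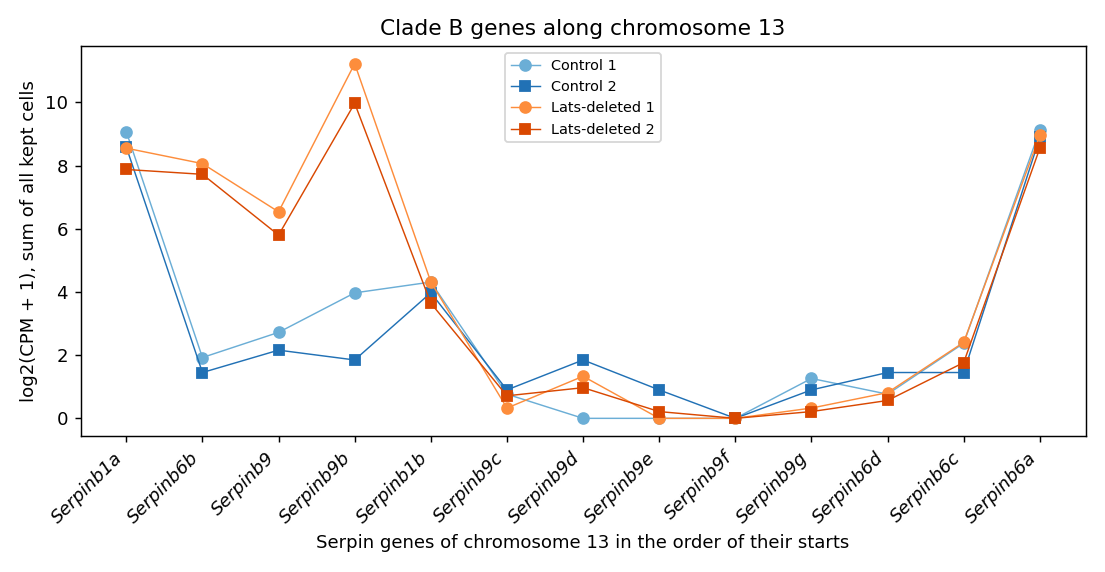
Levels of the 13 Serpin genes of chromosome 13 as log2(CPM + 1) of the counts summed over all kept cells, in the order of their starts, with a line for each library (controls blue, Lats-deleted orange). The Lats-deleted lines stand above the control lines at Serpinb6b, Serpinb9 and Serpinb9b, and the lines lie close at Serpinb1b and Serpinb6a. At Serpinb1a both Lats-deleted points lie below both control points, at 374 and 234 CPM against 537 and 383 CPM.

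The upstream sequences of this trio are shown because the genes lie side by side and moved together. The RefSeq promoter table (GRCm38.p6) held a window, 250 bases before to 50 bases after a start, for 49 of the 58 members, in 57 windows. The 250 bases before the start of Serpinb9 (chr13:33004291-33004540, plus strand) and Serpinb9b (chr13:33027164-33027413, plus strand) are printed 5′ to 3′, with the stretch that aligns between them in capitals. Windows are counted from the RefSeq starts, which can differ from the GENCODE starts. The printed bases of Serpinb9 lie inside its GENCODE span given above, and those of Serpinb6b overlap the start of its span.
Serpinb9: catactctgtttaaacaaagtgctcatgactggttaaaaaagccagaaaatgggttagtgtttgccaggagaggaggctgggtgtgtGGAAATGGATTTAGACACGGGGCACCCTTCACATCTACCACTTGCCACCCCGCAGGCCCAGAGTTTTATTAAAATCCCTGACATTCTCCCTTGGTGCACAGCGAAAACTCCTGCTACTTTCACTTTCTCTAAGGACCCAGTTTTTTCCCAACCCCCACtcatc
Serpinb9b: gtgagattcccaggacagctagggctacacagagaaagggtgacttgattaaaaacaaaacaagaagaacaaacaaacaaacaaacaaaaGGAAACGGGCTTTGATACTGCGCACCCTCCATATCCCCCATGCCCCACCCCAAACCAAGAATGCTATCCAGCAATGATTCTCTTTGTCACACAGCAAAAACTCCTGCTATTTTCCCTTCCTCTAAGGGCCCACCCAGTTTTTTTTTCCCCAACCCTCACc
The capitals cover -163 to -6 of Serpinb9 and -160 to -2 of Serpinb9b, counted back from the start, with 150 aligned bases of which 118 (78.7%) are identical. A local alignment was run for all 55 pairs of the 11 tested members that have a window, and no other pair aligned over more than 41 bases. The window of Serpinb6b (chr13:32965011-32965260, plus strand), which moved in the same direction, is printed in lower case throughout, since it had no such alignment and no match to a motif searched.
Serpinb6b: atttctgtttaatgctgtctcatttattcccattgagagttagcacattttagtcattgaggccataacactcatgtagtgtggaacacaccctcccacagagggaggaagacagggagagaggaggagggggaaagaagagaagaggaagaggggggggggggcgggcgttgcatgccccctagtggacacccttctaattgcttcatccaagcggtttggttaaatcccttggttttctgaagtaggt

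A set of 3 motifs was searched on both strands of every window: GGAATG of the TEAD factors, through which YAP and TAZ bind DNA, TGACTCA of AP-1, and GAANNTTC of the heat shock factors. GGAATG was found in 14.7% of the 32851 windows of the table and in 11 of the 57 member windows, TGACTCA in 5.20% and 6 windows, and GAANNTTC in 7.86% and 6 windows. Among the 6 members called higher that have a window, Serpinb8 held TGACTCA and Serpinb5 held GAANNTTC. Both are printed with the motif in capitals: Serpinb5 (chr1:106860925-106861174, plus strand), where it starts at -207, and Serpinb8 (chr1:107589756-107590005, plus strand), where it lies on the minus strand at -23; a further match on the minus strand, at +14, lies outside the bases printed.
Serpinb5: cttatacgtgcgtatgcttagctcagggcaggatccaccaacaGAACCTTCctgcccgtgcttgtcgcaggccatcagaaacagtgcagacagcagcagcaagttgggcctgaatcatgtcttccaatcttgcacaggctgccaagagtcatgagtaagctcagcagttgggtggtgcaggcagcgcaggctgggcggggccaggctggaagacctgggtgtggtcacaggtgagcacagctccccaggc
Serpinb8: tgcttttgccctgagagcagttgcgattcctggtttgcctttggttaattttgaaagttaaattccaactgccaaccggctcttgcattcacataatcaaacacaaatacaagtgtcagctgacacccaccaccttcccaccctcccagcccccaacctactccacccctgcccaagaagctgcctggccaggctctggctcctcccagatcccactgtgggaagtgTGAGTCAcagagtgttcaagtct
The windows of Serpinb9b, Serpinb9, Serpinb6b and Serpinh1 hold none of the 3 motifs. GGAATG was present in windows of Serpinb6a and Serpinb1b, which did not pass the test. These matches describe letters in a short window and nothing about binding.

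The remaining clade B members that rose lie on chromosome 1. Serpinb5 (106861173 to 106883348), known as maspin, an epithelial serpin without protease-inhibiting activity, was at 6.29 and 6.93 CPM in controls and at 114 and 76.6 CPM after deletion. The spread within each group was small beside that gap, with log2 fold change 3.85 (SE 0.339, adjusted p = 0.000467). Serpinb8 (107590006 to 107610484), an inhibitor of the proprotein convertase furin, was at 2.80 and 0 CPM in controls and at 25.02 and 9.75 CPM after deletion. Its controls rest on 4 counts in all. The log2 fold change came to 3.46 (SE 0.923, adjusted p = 0.0307), and the call was lost without control library 1 (adjusted p = 0.0733) or control library 2 (adjusted p = 0.141), within a range of 1.47e-10 to 0.141 over the alternatives. Without control library 1 the remaining control was at 0, and no fold is given. The log2 fold change was 2.62 without control library 2, 2.64 without Lats-deleted library 1, and 4.64 with cells of at least 2000 counts.

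The pair that dominates the control epithelium did not pass the test. Serpinb1a, an inhibitor of neutrophil elastase and related proteases, was at 537 and 383 CPM in controls and at 374 and 234 CPM after deletion. Both Lats-deleted libraries were below both controls, with log2 fold change -0.60 (SE 0.307, adjusted p = 0.187). Serpinb6a, an intracellular inhibitor of cathepsin G and trypsin-like proteases, was at 554 and 475 CPM in controls and 495 and 374 CPM after deletion, so that its groups overlapped (log2 fold change -0.24, SE 0.243, adjusted p = 0.493). Without Lats-deleted library 1 both were called lower, at -0.97 for Serpinb1a (adjusted p = 8.65e-06, range 8.65e-06 to 0.697 over the alternatives) and -0.46 for Serpinb6a (adjusted p = 0.0427, range 0.0427 to 0.954). That fit left a single Lats-deleted library, which was assumed to vary like the controls.

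Of the members outside clade B, Serpinh1 and Serping1 rose, and Serpine2 and Serpinc1 did not pass the test. Serpine2, an inhibitor of thrombin and plasminogen activators, was at 3.50 and 4.33 CPM against 5.81 and 4.00 CPM, which overlap (log2 fold change 0.32, SE 0.489, adjusted p = 0.688). Serpinc1, the antithrombin gene, was at 4.19 and 9.53 CPM against 5.81 and 3.20 CPM and overlapped as well (log2 fold change -0.60, SE 0.564, adjusted p = 0.463).

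Serpinh1 (chromosome 7, 99345376 to 99353239), the collagen chaperone HSP47, was at 3.50 and 2.60 CPM in controls and 37.4 and 26.4 CPM after deletion (log2 fold change 3.35, SE 0.415, adjusted p = 0.00164). In Lats-deleted library 1, 73.0% of its counts came from cluster 13, 71 stromal-like cells with Dcn, Col3a1 and Sparc among their markers, where it reached 571 CPM. Without stromal-like cells it was at 3.12 and 2.44 CPM in controls against 11.9 and 23.8 CPM; the log2 fold change was then 2.44 and its adjusted p 0.0173 (range over the alternatives 1.02e-13 to 0.0314). The control values without stromal-like cells rest on the same 5 and 3 counts and differ only because TMM scaling was not applied. In Lats-deleted library 2 the largest shares of the Serpinh1 counts lay in clusters 2 (32.7%) and 6 (19.4%).

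Serping1 (chromosome 2, 84765387 to 84775444), the C1 inhibitor of the complement system, was at 2.10 and 1.73 CPM in controls and at 100 and 8.47 CPM after deletion. The Lats-deleted libraries lay far from each other, and the log2 fold change came to 4.77 (SE 1.47, adjusted p = 0.0486). The call was lost without control library 1 (adjusted p = 0.241) or control library 2 (adjusted p = 0.222), within a range of 2.67e-42 to 0.241 over the alternatives, and the log2 fold change was 2.11 without Lats-deleted library 1 and 5.64 without Lats-deleted library 2. Stromal-like cells held 98.0% of its counts in Lats-deleted library 1, at 2058 CPM. Without them, by plain totals, Serping1 was at 1.87 and 1.63 CPM in controls and 2.37 and 3.45 CPM after deletion, too low to be tested. The control counts were the same 3 and 2, so only the scale changed there.

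Serpina3n (chromosome 12, 104406729 to 104414329), an acute-phase serpin that inhibits leukocyte proteases, was at 0 and 0.866 CPM in controls and at 71.3 and 5.28 CPM after deletion. The controls hold 1 count in all, and the ratio of the summed counts was 79.7, with a counting interval of 14.2 to 3159 (exact, 95%). It did not pass the test (log2 fold change 6.46, SE 2.01, adjusted p = 0.0506). Here too 97.5% of the counts of Lats-deleted library 1 were in stromal-like cells, at 1455 CPM, and 69.7% of those of Lats-deleted library 2 were in the stomach gland-like cells of cluster 15, at 102 CPM. Without stromal-like cells it was at 2.08 and 4.83 CPM after deletion, by plain totals, and was not tested.

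The 9 genes of the stromal marker list summed to 36.2 and 26.1 CPM in controls, where Lum was at 0 in library 1 and Mgp at 0 in library 2, and to 1381 and 140 CPM after deletion with all 9 detected. Of the 9461 Serpinb9b counts of Lats-deleted library 1, stromal-like cells held 4, at 21.2 CPM. Without the stromal-like cells, 7 members were called higher and 0 lower, beside 16.2% and 16.1% of all genes tested in that fit; Serping1 was not among those tested.

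In the control libraries Serpinb1a and Serpinb6a differed between clusters. Among the enterocyte-like clusters, cluster 5 had Serpinb1a at 1163 and 942 CPM, whereas cluster 0 had it at 324 and 304 CPM. Serpinb6a was at 785 and 892 CPM in cluster 5 and at 516 and 428 CPM in cluster 0. The unnamed cluster 9 was lowest for both, with Serpinb1a at 128 and 174 CPM and Serpinb6a at 216 and 198 CPM. Goblet-like cells had 292 and 242 CPM of Serpinb1a and 300.3 and 331 CPM of Serpinb6a. These orders agreed between the control libraries. Of the 21 Serpinb9b counts of control library 1, 81.0% lay in cluster 5, while control library 2 had 0 counts there.

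**Figure D3:**
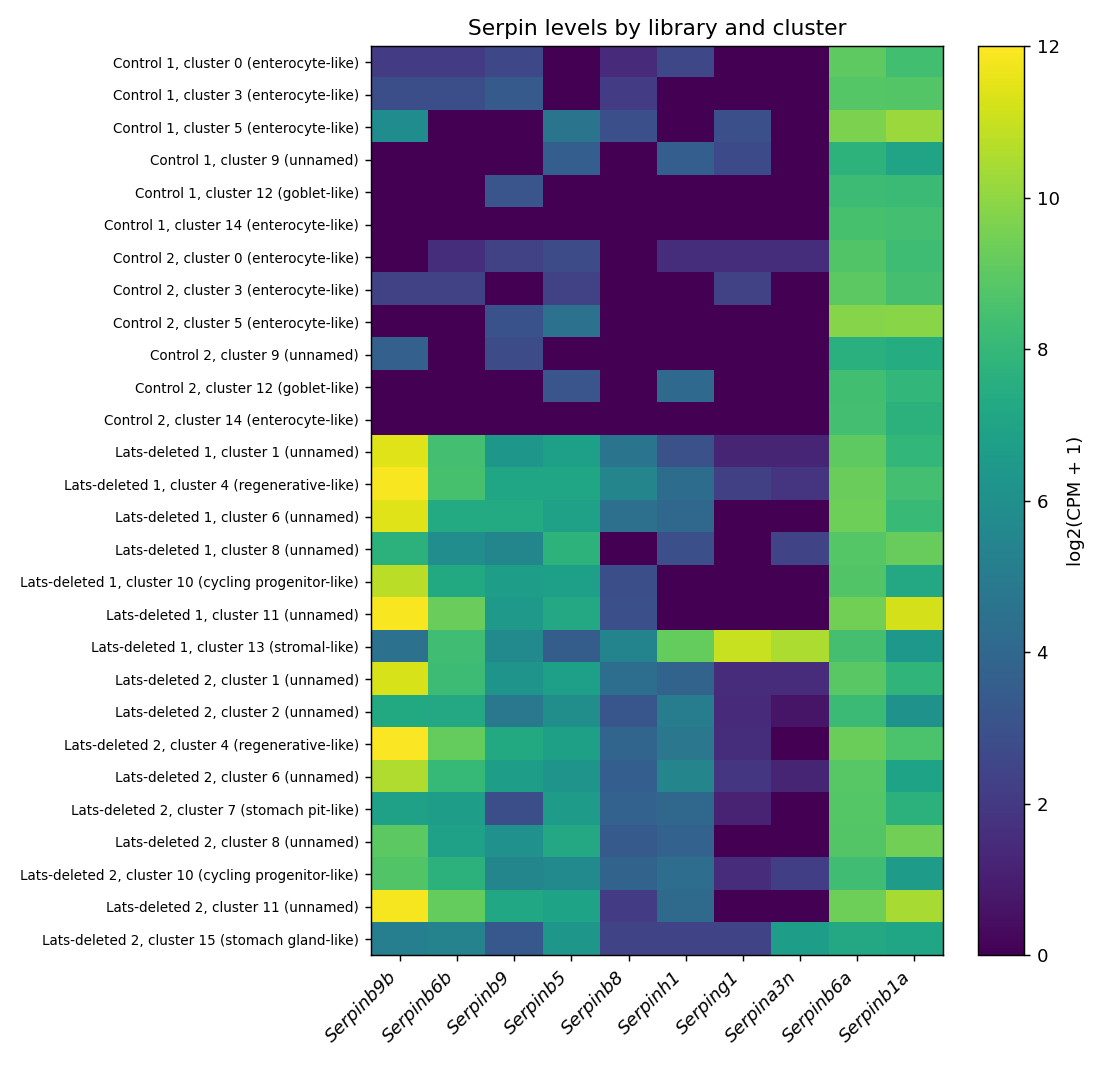
Colours give log2(CPM + 1) of 10 Serpin genes (columns) in each library and cluster with at least 20 cells (rows), from 0 in dark to 12 in yellow. Serpinb9b is bright in several Lats-deleted clusters, Serping1 and Serpina3n are bright in the stromal-like cluster, and Serpinb6a and Serpinb1a are present in all rows.

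In the Lats-deleted libraries Serpinb9b was high in some clusters and low in others. The regenerative-like cells of cluster 4, which carry Plat, Tgfb2 and Ankrd1, had 3823 CPM in library 1 (95% counting interval 3727 to 3921) and 3910 CPM in library 2 (3738 to 4088). Cluster 11, whose markers included Clca4a, Reg3b and Krt20, had 3749 CPM (3444 to 4074) and 3652 CPM (3440 to 3874). The intervals of these clusters overlap, and they cover counting error only. Cluster 1, whose markers included Cdkn2a, Ly6c1 and Wnt7b, had 2743 and 2501 CPM. High levels of the regenerative marker list were not particular to cluster 4. The list summed to 20400 and 21390 CPM there, 22450 and 20690 CPM in cluster 11, and 17010 and 16430 CPM in cluster 1. In cluster 8 it was at 11940 and 16250 CPM, and in cluster 10 at 14840 and 8868 CPM. Clusters 2, 7 and 15 of library 2 had 9820, 10400 and 9460 CPM of the list.

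Cluster 6 was unnamed and matched the smooth muscle list best, with Acta2 and Tagln first and Cald1, Msn and Thbs1 also among its markers. Acta2 and Tagln were not among its top markers when genes found in few of its cells were left out. The regenerative marker list summed to 19540 CPM in library 1 and 15200 CPM in library 2 in cluster 6. Its Serpinb9b level was 2759 CPM in library 1, close to cluster 1 there, and 1530 CPM in library 2. The cycling progenitor-like cells of cluster 10 had 1754 and 420 CPM. Cluster 8, whose markers included Wfdc18, Gpx2, Duox2 and Cldn2, had 211 and 496 CPM. The order of these clusters was therefore not the same in both libraries. The clusters found almost only in library 2 were lower still: cluster 2 (Krt4, Muc1, Cldn18) had 155 CPM, the stomach pit-like cluster 7 had 114 CPM and the stomach gland-like cluster 15 had 35.5 CPM. With the cells of clusters 2, 7 and 15 left out of all libraries, an alternative added after the data were seen, 8 members were called higher and 0 lower, beside 19.7% and 19.6% of all genes tested in that fit.

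Serpinb6b had its highest levels in cluster 11, at 614 and 570 CPM, and cluster 4, at 366 and 567 CPM. It was also present in stromal-like cells, at 323 CPM, where Serpinb9b was at 21.2 CPM. Serpinb9 was at 137 and 157 CPM in cluster 4, at 161 and 106 CPM in cluster 6 and at 6.28 CPM in the stomach pit-like cells. Serpinb5 was spread more evenly: it was at 215 and 152 CPM in cluster 8, where the trio of chromosome 13 was lower than in cluster 4, and at 133 and 111 CPM in cluster 4. It was at 96.8 CPM in stomach pit-like and 79.9 CPM in stomach gland-like cells, and at 10.6 CPM in stromal-like cells.

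For Serpinb8, cluster 4 held 67.7% of the counts in library 1, at 42.6 CPM, but 11.5% in library 2, at 14.1 CPM.

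Serpinb1a followed another order from Serpinb9b. It was at 2367 and 1387 CPM in cluster 11, at 592 and 702 CPM in cluster 8 and at 343 and 392 CPM in cluster 4. It was low in cluster 2, at 71.3 CPM, stromal-like cells, at 84.6 CPM, and cluster 10, at 151 and 98.2 CPM. Cluster 11 therefore combined high levels of Serpinb9b, Serpinb6b and Serpinb1a, and cluster 8 combined Serpinb1a and Serpinb5 with low Serpinb9b. Serpinb6a ranged from 151 CPM in stomach gland-like cells to 694 and 649 CPM in cluster 11.

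**Figure D4:**
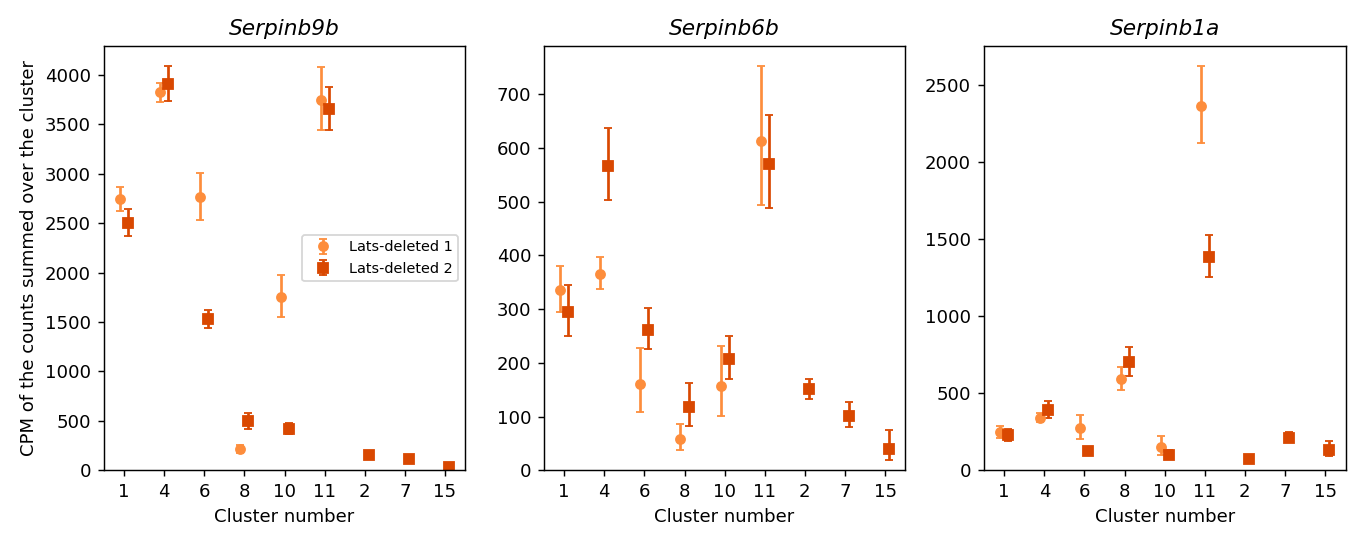
CPM of Serpinb9b, Serpinb6b and Serpinb1a in the clusters of Lats-deleted library 1 (light circles) and library 2 (dark squares), with exact 95% Poisson intervals; the stromal-like cluster 13 is not drawn. Serpinb9b is highest in clusters 4 and 11, and Serpinb1a in cluster 11.

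Serpinb9b was found in most cells of some classes. With each cell thinned to 1000 counts, 0.646% and 0.194% of control cells and 65.0% and 35.9% of Lats-deleted cells had a Serpinb9b count; without thinning these were 1.03%, 0.583%, 72.9% and 54.0%. For Serpinb6b the thinned shares were 0.129% and 0.194% against 21.4% and 15.7%. The 4 libraries allow no p below 0.33 in the two-sided exact permutation test over their 6 splits, and both genes gave that value. For Serpinb1a the shares were 30.5% and 27.0% against 26.6% and 17.1%, with an exact permutation p of 0.33, but without thinning the mean difference had the opposite sign.

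Regenerative-like cells had a Serpinb9b count in 96.1% of cells in library 1 (exact 95% interval 92.1 to 98.4) and 95.3% in library 2 (86.9 to 99.0). In stromal-like cells of library 1 the share was 2.82% (0.343 to 9.81), and in enterocyte-like cells it was 5.13% and 4.76%, on 39 and 21 cells. The median counts per cell before thinning were 7878 and 7535 in regenerative-like cells, 2453 in stromal-like cells, and 2420 and 1893 in enterocyte-like cells. Barcodes with at least 10 but under 500 counts, a proxy for free RNA, carried Serpinb9b at 2186 and 1338 CPM after Lats deletion. In the same libraries enterocyte-like and stromal-like cells stayed at 20.3 to 52.8 CPM and 21.2 CPM.

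**Figure D5:**
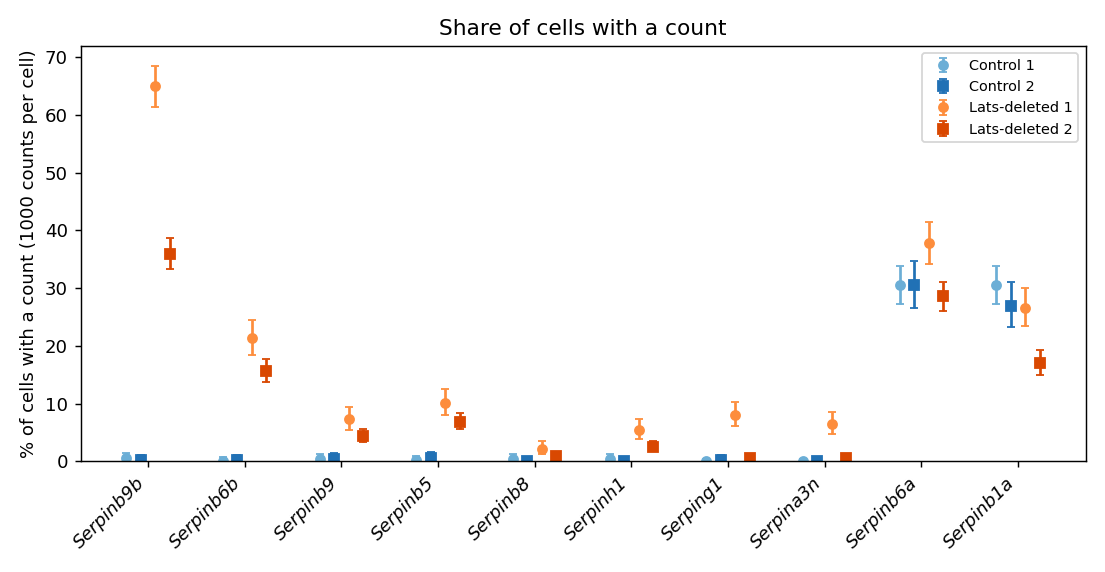
Share of cells with at least 1 count of each of 10 Serpin genes, in percent, after thinning every cell to 1000 counts, for each library with exact 95% intervals. Serpinb9b was found in 65.0% and 35.9% of Lats-deleted cells and in under 1% of control cells, and Serpinb6a and Serpinb1a in a sizeable share of cells of every library.

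Thinned cells also show which members met in the same cell. In Lats-deleted library 1, 27.5% of cells with a Serpinb9b count also had a Serpinb6b count, against 9.84% of cells without one, and in library 2 these shares were 23.1% and 11.5%. For Serpinb9 they were 9.96% against 2.36% and 8.21% against 2.18%. Serpinh1 went the other way, with 1.48% against 12.6% and 1.51% against 3.15%. In library 1 only 2.82% of stromal-like cells had a Serpinb9b count, and most Serpinh1 counts lay in stromal-like cells. Cell classes were not separated in these shares. For Serpinb5 the shares were closer, at 11.02% against 8.66% and 8.64% against 5.93%. Serpinb9 was found in 7.10% of cells with a Serpinb6b count against 7.36% of cells without one in library 1, and in 8.42% against 3.59% in library 2, so the higher share was seen in library 2 but not in library 1.

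Enterocyte-like cells allowed a comparison within a like class, with 627 and 401 control cells and 39 and 21 Lats-deleted cells. Of the 5902 genes tested, 0.169% were called there, 0.0508% higher and 0.119% lower. Of the 3 Serpin members tested 0 were called by edgeR or DESeq2, with 1 at an unadjusted p under 0.05 in the edgeR test. At that unadjusted cut stood 450 of the 5902 genes, 161 higher and 289 lower. Serpinb9b was at 16.9 and 1.07 CPM in controls and at 20.3 and 52.8 CPM after deletion, on 2 and 3 counts in the latter (log2 fold change 1.69, SE 1.05, adjusted p = 0.769). It was 0.97 without Lats-deleted library 2. Serpinb1a was at 568 and 404 CPM against 426 and 299 CPM (log2 fold change -0.39, SE 0.259, adjusted p = 0.793). Serpinb6a was at 576 and 508 CPM against 406 and 352 CPM, and was the member with the unadjusted p of 0.0438 (log2 fold change -0.51, SE 0.248, adjusted p = 0.638). So few Lats-deleted cells limit what this class can show.

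A comparison of stem-like and cycling progenitor-like cells could not be fitted, because the clustering put no control cell in that class and 27 and 107 Lats-deleted cells. This rests on the naming rule. At the finer clustering, an unnamed cluster with stem as its best marker list held 72 and 50 control cells. At a clustering resolution of 2, stem-like control cells numbered 35 and 11 and had 1 Serpinb9b count in each library, while cycling progenitor-like Lats-deleted cells numbered 28 and 205 and were at 1740 and 240 CPM. These are values of small and differently named clusters, and no test was made on them.

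Over the 28 library-by-cluster units with at least 20 cells, levels of Serpinb9b and Serpinb6b had a Spearman correlation of 0.898, and Serpinb9b and Serpinb9 of 0.885. Serpinb1a and Serpinb6a had 0.725, Serpinb1a and Serpinb9b 0.153, and Serping1 and Serpinb9b 0.0976. The units share libraries and their depths, and these values are descriptions. Of genes outside the family, those closest to Serpinb9b were Asah1 (0.960), Ctgf (0.949), Kitl (0.947), Msln (0.945) and Slc35e4 (0.940). Ctgf is a classical target of YAP and TAZ, and Msln a mesothelin gene of fetal and injured epithelium. Closest to Serpinb6b were Dusp14 (0.933), Gcnt1 (0.927), Msln (0.926), Cryab (0.924) and Ly6f (0.916), and to Serpinb5 were Pmepa1 (0.927), Clic1 (0.919), Phlda1 (0.915), Jup (0.914) and Arpc1b (0.913).

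The proteases that serpins act on were mixed in direction. Of 17 tested serine proteases known to be inhibited by serpins, or related to such proteases, 8 were higher and 3 lower in the sum of all cells, with a median log2 fold change of 0.11. Of all genes tested in this sum, 15.3% were higher and 15.5% lower, with a median of 0.05, and the counts of the lists that follow are read against the same shares. Plat, the tissue plasminogen activator, rose from 1.40 and 0.866 CPM to 579 and 184 CPM (log2 fold change 8.32, SE 0.845, adjusted p = 0.000763). Klkb1, the plasma kallikrein gene, which C1 inhibitor blocks, fell from 43.3 and 47.6 CPM to 6.57 and 5.12 CPM (adjusted p = 0.000669). Ctrb1 and Prss2, digestive enzymes of the pancreas, rose to 167 and 142 CPM and to 59.4 and 28.1 CPM from at most 0.699 CPM. The 8 pancreatic acinar markers, which include both, summed to 15.6 and 14.7 CPM in controls and 434 and 339 CPM after deletion. In clusters with at least 20 cells of Lats-deleted library 1 these markers reached at most 26.9 CPM. Most of its sum therefore lay in its few cells outside those clusters. In Lats-deleted library 2 they were highest in cluster 2, at 1063 CPM. Their part in the count of higher proteases was not tested.

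Of 12 tested receptors and cofactors of proteases and serpins, 10 were higher and 1 lower (median log2 fold change 2.12), beside 15.3% and 15.5% of all genes tested. Plaur, the urokinase receptor, rose from 3.50 and 3.46 CPM to 304 and 257 CPM (log2 fold change 6.32, SE 0.305, adjusted p = 0.000183). F3, tissue factor, rose from 5.59 and 2.60 CPM to 363 and 390 CPM, and the protease-activated receptors F2rl1 and F2r rose with log2 fold changes of 2.56 and 4.88. Of 11 lysosomal proteases and caspases, 2 were higher and 4 lower (median -0.58): Ctsl, a cysteine protease, and Ctsd, an aspartic protease, rose by 3.35 and 1.52 on the log2 scale, and Ctss and Casp1 fell by 3.20 and 2.72.

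Of 13 genes of collagen folding that work with or beside Serpinh1, 2 were higher and 3 lower (median 0.23), shares near the 15.3% and 15.5% of all genes tested. Crtap, part of the collagen prolyl hydroxylation complex, rose to 38.9 and 38.2 CPM from 2.10 and 0.866 CPM, while P4hb fell from 2071 and 1914 CPM to 468 and 508 CPM, and Sec23a and Kdelr2 fell by 1.89 and 1.12 on the log2 scale. Of 13 tested protease inhibitors outside the serpins, 6 were higher and 2 lower (median 2.05), beside the same shares of all genes. Timp2 and Timp3, inhibitors of metalloproteases, rose with log2 fold changes of 6.26 and 4.98. Spink4, a Kazal-type inhibitor of goblet cells, fell from 362 and 366 CPM to 4.80 and 9.27 CPM, beside goblet markers that summed to 18220 and 33640 CPM in controls against 240 and 1080 CPM. Cst6, a cystatin, fell by 3.91 on the log2 scale.

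Close copies in the family can exchange reads. Of the sequence words of 35 bases in the last 500 bases of the transcripts, 8.05% for Serpinb9b also occur in Serpinb9, and 8.21% for Serpinb6b occur in other genes, Serpinb6c among them. The share was 10.7% for Serpinb1a and 3.12% for Serpinb6a, and none was found for Serpinb5, Serpinb8, Serpinb9, Serpine2, Serping1 or Serpinh1. Each share covers the last 500 bases of the named gene only. Serpinb9 transcripts still hold the shared words of Serpinb9b, outside those bases. How far reads of Serpinb9b add to the Serpinb9 values given above was not tested. How the deposited counts treated reads that match several genes is not given in the sources used here.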

How the data were processed

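Messenger RNA counts per cell barcode and gene were measured in 4 inDrop libraries of sorted small-intestinal epithelium, 2 control and 2 Lats-deleted. The deposited values are raw counts, 1 table per library, per the file headers; all were whole numbers, and file totals ran from 2247269 to 9191916. The submitters' processing notes name RSEM 1.3.0, Bowtie 1.1.1.1 and SAMtools 1.3.1 as tools and mm10 as the build, and give no role or order. Whether a count is a molecular identifier is not given in the sources used here, so intervals cover counting error only.

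The members and all gene lists were chosen with earlier results of these data known. Barcodes with at least 1000 counts, 300 genes and at most 30% mitochondrially encoded counts were kept as cells. Cells were clustered without the Serpin genes (scanpy 1.11.5; scaled to 10000 counts, 2000 variable genes, 30 components, 15 neighbours, Leiden resolution 1 with leidenalg 0.10.2). Clusters took a name ending in -like from marker lists, or stayed unnamed where the markers did not settle it; no doublet caller was run. The cluster names were built here and are not those of the submitters. Cells are not replicates: counts were summed per library, and genes that passed filterByExpr were tested by the quasi-likelihood F-test of edgeR 4.0.16 (R 4.3.3) with TMM scaling and without a block. Values in full are given for members at 20 CPM or more on average in a group, or called at an adjusted p under 0.05; of each further list, up to 4 members with the smallest p are named. Members of low level just outside the filter are given by counts. For shares of cells, each cell was thinned to 1000 counts. Alternatives were RLE scaling, DESeq2 1.42.0, no filter, other cell thresholds, a replicate block, leaving out each library, and leaving out stromal-like or stomach-like cells. The edgeR step was tested on simulated data. Gene positions come from GENCODE M21 on GRCm38, where all 58 members matched by symbol. Results for some genes withheld for evaluation are left out, although the counts of members include every member tested.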

Additional observations from a re-analysis of the deposited data

How the results depend on the processing

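The 8 members called higher numbered 6 to 9 when each library was left out in turn, 9 with DESeq2, 10 without the filter on low counts (Serpina1e and Serpina3n added), and 7 to 9 under the other alternatives. The count of 0 lower became 1 without the filter (Serpina5, adjusted p = 0.0441, on 2 to 4 counts per library) and ranged from 0 to 2 when each library was left out. Genes called over the whole table ranged from 1228 to 5387 when each library was left out; 1228 were called without control library 1 and 1478 without control library 2. In enterocyte-like cells, 10 genes were called, beside 3 with DESeq2, 84 without the filter, 20 at resolution 2 and 3 to 30 when each library was left out. The cause of these changes was not tested. For most alternatives the members tested and the shares of all genes called higher and lower are not given here. The member counts alone therefore do not show how stable the family is relative to all genes.

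Serpina3n passed the threshold in 5 of its 10 alternatives, with adjusted p from 3.27e-36 to 0.265. Serpinb1b and Serpinc1, with small differences, changed sign: Serpinb1b had a log2 fold change of 0.0417 without the filter, 0.0396 without clusters 2, 7 and 15, and -0.55 to 0.15 when each library was left out, and Serpinc1 had -1.06 to 0.10 when each library was left out. The mean share of cells with a Serpinb1a count differed by 1.28 percentage points (Lats-deleted minus control) without thinning, against -6.91 with it. With the replicate number as a block, 4162 genes and 9 members were called higher or lower, Serpina3n being the addition (adjusted p = 0.000986), and 25 genes in enterocyte-like cells. Samples with the same number did not deviate together (correlation 0.0447, and -0.0195 in enterocyte-like cells), so the numbers are not taken as pairs. The planned tests within stem-like and progenitor-like cells, and of the difference between classes, were not run. The main clustering put no control cell in a cluster of either name. Serpinb9b, Serpinb6b, Serpinb9, Serpinb5 and Serpinh1 were called higher in all 14 alternatives run. Depth limits the 41 untested members and the control levels of the called members, which for all but Serpinb9b rest on under 10 counts per library.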
